A study of Mus musculus with 12 samples.

Results

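The genes described here are 33 genes of striated muscle, chosen by symbol as the parts of the sarcomere and of its calcium and energy supply. All 33 were among the 35240 gene symbols of the table, and their levels were used to ask whether striated muscle had been carried along in the pieces of distal colon. RNA was sequenced from the full thickness of the distal colon in 12 mice, 6 of them Spry2IEKO (VillinCre;Spry2 flox/flox) and 6 Spry2FF littermates (Spry2 flox/flox without Cre). Cre was driven by a villin promoter construct, so that Sprouty2 was deleted in the intestinal epithelium and, by design, not in the muscle of the wall, and both alleles were flanked by loxP sites in the controls too. Each of 2 litters, A and B, gave 3 Spry2FF and 3 Spry2IEKO mice. Of the Spry2FF mice 3 were male, and of the Spry2IEKO mice 1 was. The labels give ages of 6 weeks in one protocol and 8 weeks in another.

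Striated muscle contracts through the sarcomere, in which filaments of myosin slide along filaments of actin. In fast and slow fibres the same parts are made from different genes, so that myosin heavy chains and troponins mark the type of fibre. The wall of the mouse colon is built of smooth muscle, which has its own myosin (Myh11) and actins (Acta2, Actg2) and no sarcomeres, whereas skeletal muscle lies near the anus in the external sphincter and pelvic floor. Of the 33 genes, 14 are used mainly in fast fibres, 7 mainly in slow fibres and the heart, and 12 in both.

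Values are TPM, the abundance of a transcript relative to all others in a sample as estimated by kallisto, scaled once more between mice by the authors and summed here over the transcripts of a gene, and are called normalized TPM. They are adjusted for transcript length, so that genes can be set side by side. The totals ran from 918816 to 1069158 per mouse, and since these are not read counts the depth behind a value is unknown and no counting interval is given. A value of 0 is reported as listed at 0, because 26 of 6022 genes whose mean reached 20 were also listed at 0 in some mouse. Spry2 was 27.7 ± 3.29 (SD, n = 6) in Spry2FF and 20.04 ± 1.59 (SD, n = 6) in Spry2IEKO mice, with no overlap between the groups. Its log2 fold change was -0.45 (SE 0.0877, adjusted p = 0.16) by limma, so that Spry2 itself did not pass after adjustment. In bulk RNA of this kind, fewer cells of a type and less RNA per cell cannot be told apart. Values are listed below in the order of mice 2, 3 and 7 (litter A) and 9, 10 and 13 (litter B) for Spry2FF, and of mice 4, 5 and 6 (litter A) and 8, 11 and 12 (litter B) for Spry2IEKO.

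The sarcomeric myosin heavy chains and titin were at or near 0 in all 12 mice, while the abundant genes of the 33 were a slow troponin subunit (Tnni1) and enzymes of energy supply (Eno3, Ckm). The summed level of the 33 genes ran from 261 to 511 normalized TPM, but 3 genes, Eno3, Tnni1 and Ckm, made up 81.4 to 93.2% of it in each mouse. Of the rest, 13 genes had a mean between 0.5 and 10, and 17 had a mean under 0.5. The lowest included Myh4, listed at 0 in all 12 mice, and titin (Ttn), at no more than 0.0295. Over all 35240 genes 45.1% had a mean of at least 0.5, beside 48.5% of the 33 striated muscle genes.

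**Figure D1:**
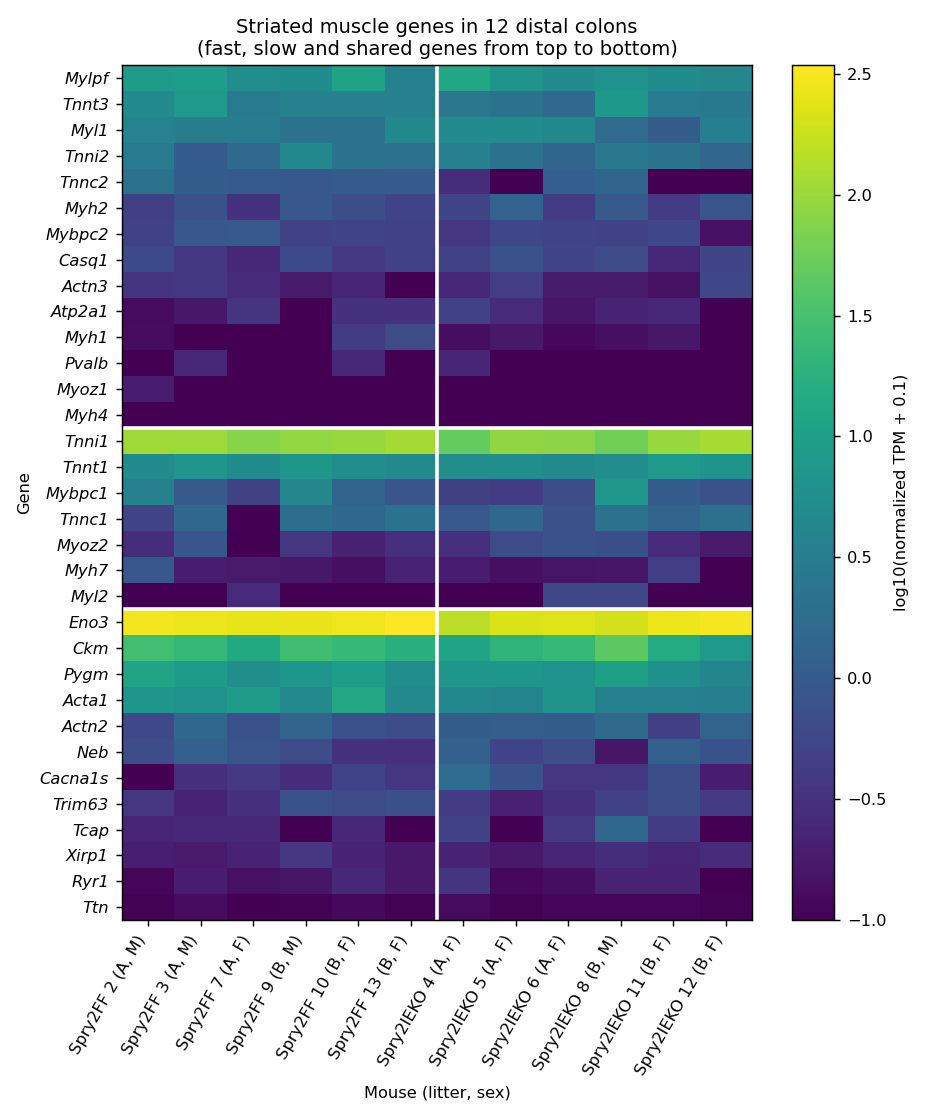
Level of each of the 33 striated muscle genes (rows, grouped as fast, slow and shared from top to bottom) in each of the 12 mice (columns, with litter and sex), as log10(normalized TPM + 0.1). Eno3 and Tnni1 stand out in all 12 mice, and Myh4 is at the bottom of the scale in each. Ckm is lower than these 2 genes, and in Spry2IEKO mouse 4 it lies below Mylpf (11.6 and 12.7).

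The upstream sequences of 5 genes are shown because they set the 3 abundant genes, Tnni1, Eno3 and Ckm, beside Acta1 and Myh4, which encode the actin and a fast myosin of the sarcomere. They are the 250 bases before the RefSeq start on GRCm38.p6, printed 5′ to 3′ on the gene's strand, with capitals marking the E-box CAGCTG bound by myogenic factors, the TATA box TATAAA, the CArG box bound by serum response factor and the MEF2 site, each searched on both strands. Tnni1 lies on the plus strand at chr1:135799171-135799420, Eno3 at chr11:70656926-70657175, Ckm at chr7:19410844-19411093 and Myh4 at chr11:67237562-67237811, and Acta1 on the minus strand at chr8:123894776-123895025.
Tnni1: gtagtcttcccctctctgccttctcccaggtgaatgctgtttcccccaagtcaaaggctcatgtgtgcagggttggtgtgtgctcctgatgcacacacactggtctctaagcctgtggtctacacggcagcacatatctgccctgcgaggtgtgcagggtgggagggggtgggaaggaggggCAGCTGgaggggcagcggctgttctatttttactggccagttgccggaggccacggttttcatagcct
Eno3: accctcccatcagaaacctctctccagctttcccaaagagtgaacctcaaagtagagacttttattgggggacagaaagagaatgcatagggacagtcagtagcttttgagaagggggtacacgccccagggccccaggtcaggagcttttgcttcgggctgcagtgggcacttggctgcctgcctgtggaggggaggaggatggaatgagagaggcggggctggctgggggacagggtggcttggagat
Ckm: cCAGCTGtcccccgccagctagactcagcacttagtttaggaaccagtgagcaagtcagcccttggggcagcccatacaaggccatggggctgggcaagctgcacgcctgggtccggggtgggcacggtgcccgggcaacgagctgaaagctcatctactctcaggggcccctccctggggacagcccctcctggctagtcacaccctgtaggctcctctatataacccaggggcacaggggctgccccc
Acta1: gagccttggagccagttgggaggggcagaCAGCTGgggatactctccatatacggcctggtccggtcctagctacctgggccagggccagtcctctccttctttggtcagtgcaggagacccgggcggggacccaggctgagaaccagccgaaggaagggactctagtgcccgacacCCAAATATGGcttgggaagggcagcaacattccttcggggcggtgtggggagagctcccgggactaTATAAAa
Myh4: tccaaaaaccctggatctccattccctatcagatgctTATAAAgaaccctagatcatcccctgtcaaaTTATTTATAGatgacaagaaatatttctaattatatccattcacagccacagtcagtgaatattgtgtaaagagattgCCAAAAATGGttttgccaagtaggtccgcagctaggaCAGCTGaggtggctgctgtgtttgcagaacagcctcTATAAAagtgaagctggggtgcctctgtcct

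Eno3 held none of these 4 motifs in this window, and Tnni1 and Ckm held 1 E-box each. Acta1 held an E-box, a CArG box and a TATA box, and Myh4 held 6 matches, of which a MEF2 site overlaps a TATA box. An E-box CAGCTG stood in at least 1 window of 14 of the 26 striated muscle genes with a RefSeq window, that is in 15 of their 30 windows (50%), beside 13% of all 32851 windows of that length. A MEF2 site stood in 16.7% of their windows and in 2.92% of all windows, and a CArG box in 6.67% and 1.47%. These matches are descriptions of letters in a window and say nothing of which factor was bound.

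The start of the window did not always match the start of the RNA that was measured. The most abundant Tnni1 transcript, ENSMUST00000152075.7 with 80.3% of the gene's level, starts at position 135799421 on chromosome 1, directly after the printed window. The most abundant Eno3 transcript, ENSMUST00000170716.7 with 69.1%, starts at position 70657796 on chromosome 11, downstream of the window, and a further 24.2% came from ENSMUST00000072841.11, which starts at 70657202. For Ckm 58.0% of the level came from ENSMUST00000208079.1, which starts at 19404776 on chromosome 7, upstream of the window, and which GENCODE M21 lists as a processed transcript without a reading frame. The annotated coding transcripts of Ckm made up the remaining 42.0%. Of the 16 genes that reached a mean of 0.5, 5 (Actn2, Ckm, Tnnc1, Tnnt1 and Neb) had most of their level in transcripts of noncoding type such as retained introns.

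The myosin heavy chains, the motors of the thick filament, were close to 0. Myh4 (chromosome 11, 67238029 to 67260446), the chain of the fastest fibres, was listed at 0 in all 12 mice. Myh1 (chromosome 11, 67200052 to 67224575), a chain of fast fibres, was 0.0325, 0, 0, 0, 0.319 and 0.563 in the Spry2FF mice and 0.0366, 0.0719, 0.0186, 0.0390, 0.0674 and 0 in the Spry2IEKO mice. Only Spry2FF mice 10 and 13 were above 0.1. Myh2 (chromosome 11, 67171027 to 67197517), the chain of fast oxidative fibres, was 0.369, 0.659, 0.218, 0.806, 0.615 and 0.420 in the Spry2FF mice and 0.451, 1.21, 0.311, 0.883, 0.314 and 0.741 in the Spry2IEKO mice, and was the only one of the 4 chains above 0 in every mouse. Myh7 (chromosome 14, 54970684 to 54994626), the chain of slow fibres and of the heart, was 0.815, 0.0925, 0.0778, 0.0667, 0.0377 and 0.127 in the Spry2FF mice and 0.0883, 0.0378, 0.0601, 0.0616, 0.351 and 0 in the Spry2IEKO mice. Summed, the 4 chains reached 0.296 to 1.32 normalized TPM, while the smooth muscle chain Myh11 stood at 244 to 772, a ratio of 329.7 to 1183 in single mice. These chains are close in sequence and reads could be split between them.

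The fast light chains were higher than the heavy chains they bind. Mylpf (chromosome 7, 127208890 to 127214298), the regulatory light chain of fast fibres, was 8.87, 9.63, 5.31, 5.18, 11.3 and 3.48 in the Spry2FF mice and 12.7, 6.62, 4.90, 6.50, 5.07 and 4.22 in the Spry2IEKO mice. It was highest in Spry2IEKO mouse 4, and the genotypes overlapped. Myl1, the fast essential light chain, ran from 1.02 to 5.20. Myl2 (chromosome 5, 122100951 to 122113472), the regulatory light chain of slow fibres and the cardiac ventricle, was 0, 0, 0.167, 0, 0 and 0 in the Spry2FF mice and 0, 0, 0.471, 0.486, 0 and 0 in the Spry2IEKO mice, so that it was listed above 0 in 3 mice.

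Of the actin filament, Acta1 (chromosome 8, 123891769 to 123894751), the actin of skeletal muscle, was 6.99, 6.16, 8.89, 4.53, 13.6 and 4.50 in the Spry2FF mice and 4.33, 3.81, 6.56, 3.50, 3.36 and 3.25 in the Spry2IEKO mice. Spry2FF mouse 10 was highest, and 5 of the 6 Spry2IEKO mice were below all 6 Spry2FF mice. The smooth muscle actins Acta2 and Actg2, which are relatives of Acta1, stood at 682 to 1544 and 789 to 1884. Whether any of their reads were assigned to Acta1 was not tested, and the coding sequences were not compared. Of the proteins that anchor the filaments, Ttn (chromosome 2, 76703980 to 76982547), the giant spring of the sarcomere, was 0.00569, 0.0295, 0.00283, 0.00383, 0.0178 and 0.00419 in the Spry2FF mice and 0.0286, 0.00496, 0.0118, 0.0134, 0.0106 and 0.00420 in the Spry2IEKO mice. Nebulin (Neb), the ruler of the thin filament, ran from 0.0611 to 1.12, the Z-disc protein Actn2 from 0.363 to 1.59 and its fast fibre relative Actn3 from 0 to 0.457. The Z-disc proteins Myoz1, Myoz2 and Tcap and the filament protein Xirp1 stayed under 2 in every mouse, and Myoz1 was above 0 only in Spry2FF mouse 2.

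The troponins, which make the thin filament answer to calcium, held the second most abundant gene of the 33. Tnni1 (chromosome 1, 135779434 to 135810989), the inhibitory subunit of slow fibres, was 106, 103, 78.6, 91.98, 98.8 and 116 in the Spry2FF mice and 50.3, 89.1, 83.9, 61.4, 98.9 and 119.7 in the Spry2IEKO mice. Its fast counterpart Tnni2 ran from 0.952 to 4.32, so that Tnni2 made up 0.911 to 6.25% of the pair. Tnnt1, the slow subunit that binds tropomyosin, ran from 4.74 to 7.75. Tnnt3 (chromosome 7, 142498836 to 142516009), the fast form, was 4.58, 7.87, 2.88, 3.51, 3.39 and 3.47 in the Spry2FF mice and 2.45, 2.04, 1.53, 7.68, 2.82 and 2.58 in the Spry2IEKO mice, with Spry2FF mouse 3 and Spry2IEKO mouse 8 well above the others. Tnnc1 (chromosome 14, 31208312 to 31211729), the calcium-binding subunit of slow fibres and the heart, was 0.438, 1.48, 0, 1.79, 1.48 and 1.98 in the Spry2FF mice and 0.866, 1.44, 0.646, 2.08, 1.24 and 1.89 in the Spry2IEKO mice. Tnnc2 (chromosome 2, 164777161 to 164779967), its fast form, was 2.07, 0.994, 0.916, 0.842, 0.897 and 0.924 in the Spry2FF mice and 0.195, 0, 1.05, 1.30, 0 and 0 in the Spry2IEKO mice, and was listed at 0 in 3 Spry2IEKO mice. The 3 subunits are needed together in a sarcomere, and Tnni1 was many times above each slow partner in every mouse. Noncoding transcript types made up 56.1% of the level of Tnnt1 and 61.5% of that of Tnnc1. The source of Tnni1 was not tested.

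The genes of calcium release and uptake were low. Atp2a1 (chromosome 7, 126445858 to 126463108), the calcium pump of fast fibres, was 0.0286, 0.0669, 0.238, 0, 0.233 and 0.217 in the Spry2FF mice and 0.404, 0.164, 0.0650, 0.122, 0.150 and 0 in the Spry2IEKO mice. Pvalb (chromosome 15, 78191114 to 78206400), the calcium buffer of fast fibres, was 0, 0.145, 0, 0, 0.149 and 0 in the Spry2FF mice and 0.131, 0, 0, 0, 0 and 0 in the Spry2IEKO mice, above 0 in 3 mice. The release channel Ryr1 ran from 0 to 0.245, its voltage sensor Cacna1s from 0 to 1.61 and the store protein Casq1 from 0.145 to 0.675. The myosin-binding proteins Mybpc1 of slow fibres and Mybpc2 of fast fibres ran from 0.320 to 7.44 and 0.0508 to 0.859. Mybpc1 was above 3 in Spry2FF mice 2 and 9 and Spry2IEKO mouse 8, all of them males, and under 1.3 in the other 9 mice.

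Of the genes of energy supply, Eno3 had the highest mean of the 33 and Ckm came after Tnni1. Eno3 (chromosome 11, 70657202 to 70662513), the enolase of muscle glycolysis, was 298, 278, 249.9, 266, 287 and 342 in the Spry2FF mice and 151, 222, 232, 202, 275 and 309 in the Spry2IEKO mice. This gene is outside the set whose values were to be listed by mouse, as is Tnni1, and both were added after their values were seen. Spry2IEKO mouse 4 was lowest for both. Ckm (chromosome 7, 19404776 to 19422841), the creatine kinase of muscle, was 29.00, 22.8, 13.9, 28.2, 23.3 and 17.2 in the Spry2FF mice and 11.6, 19.8, 23.02, 44.6, 14.9 and 7.82 in the Spry2IEKO mice. Spry2IEKO mouse 8 was highest and Spry2IEKO mouse 12 lowest, so that the widest range lay within the Spry2IEKO group. Pygm, the muscle phosphorylase that breaks down glycogen, ran from 3.93 to 11.4. Pygm is listed under 2 Ensembl genes with the same values, and the sum of both is given. Trim63, a ubiquitin ligase of muscle wasting, ran from 0.109 to 0.672, all of it in noncoding transcript types.

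**Figure D2:**
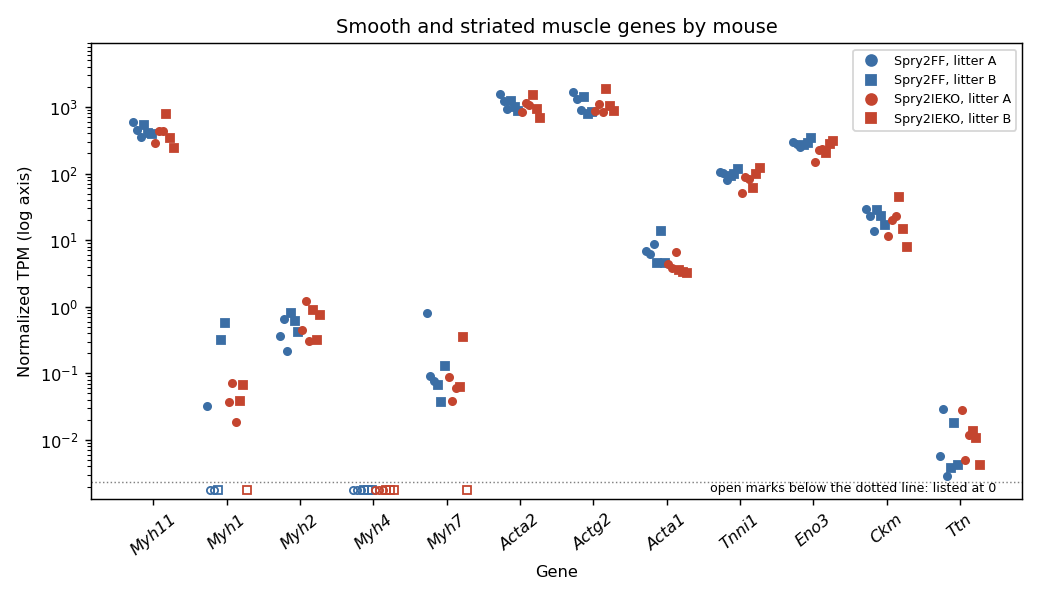
Normalized TPM (log axis) of smooth muscle genes (Myh11, Acta2, Actg2) and of striated muscle genes in each mouse, with circles for litter A, squares for litter B, blue for Spry2FF and red for Spry2IEKO. Smooth muscle genes and Eno3 lie above 100, the 4 sarcomeric myosin heavy chains lie below 2, and open marks are values listed at 0.

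Fast and slow genes gave no single picture of fibre type. The 14 fast genes summed to 12.3 to 25.5 normalized TPM and the 7 slow genes to 57.2 to 129, so that fast genes made up 9.22 to 30.8% (median 15.8%) of fast and slow genes together. This low share rested on Tnni1. Without Tnni1 fast genes made up 54.01 to 78.5% (median 68.9%), and with Mylpf, the highest fast gene, left out as well they made up 40.8 to 64.7% (median 58.5%). The subunits of troponin differed from each other too, since Tnnt3 was 24.2 to 59.1% of the pair with Tnnt1, while Tnnc2 was anywhere from 0 to 100% of the pair with Tnnc1. The highest share over all fast and slow genes, 30.8% in Spry2IEKO mouse 4, went with the highest Mylpf and the lowest Tnni1 of the 12 mice.

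**Figure D3:**
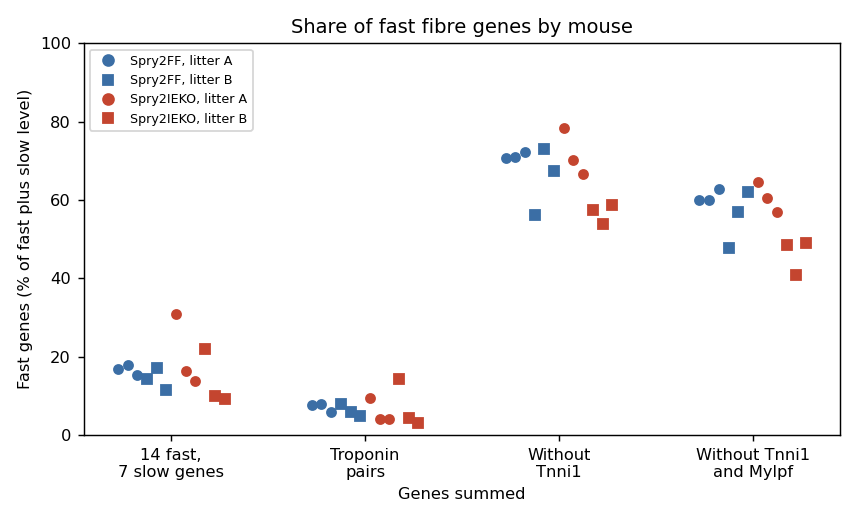
Share of fast fibre genes in the summed level of fast and slow fibre genes (percent of normalized TPM) in each mouse, over all 21 such genes, over the troponin pairs, without Tnni1, and without Tnni1 and Mylpf. The median is 15.8% over all genes and 68.9% without Tnni1, and both genotypes and litters overlap in each column.

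Lists of other cell types and of further muscle genes were set beside the 33. The list of myogenic and satellite cell genes had 5 of 10 genes at 0 in all 12 mice, Pax7, Myf5, Myod1, Myog and Myf6, the factors that make and renew skeletal muscle. Its highest gene, Mef2c (1.39 to 13.8), is also used in other cells. Of 10 neuromuscular junction genes 5 reached a mean of 0.5, namely Musk, Dok7, Colq, Lrp4 and the receptor subunit Chrnb1. The receptor subunits Chrna1, Chrnd and Chrng had maxima of 0.623, 0.0395 and 0.0401. Of 47 other skeletal muscle genes, 26 reached a mean of 0.5, led by Tpm3 (219 to 267), Fbxo32 (37.04 to 68.9) and Smpx (30.8 to 76.1), while myoglobin (Mb) reached at most 0.321 and Myot and Xirp2 were listed at 0 throughout. Of 9 cardiac genes, Tnnt2, which lies beside Tnni1 on chromosome 1, stood at 20.7 to 98.7, whereas the cardiac myosin Myh6 reached 0.431 and Nppb was listed at 0. All 14 smooth muscle genes had a mean of at least 0.5 and summed to 4382 to 11412, against 8605 to 11645 for 10 genes of colon epithelium. Genes of the stratified squamous epithelium that lines the anal canal were low as well, with Krt5 at no more than 0.209, Krt6a and Sprr3 at 0 throughout, and a sum over 18 genes of 7.36 to 14.99, with Krt10 (2.03 to 7.46) the highest by mean.

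The question whether these genes differed between Spry2IEKO and Spry2FF mice was addressed in the 16 genes that reached a mean of 0.5, 6 fast, 4 slow and 6 shared. None of the 16 passed the test (limma on log2(normalized TPM + 0.5), adjusted over all 15879 genes tested), where 0.0315% of all genes tested did. At an unadjusted p under 0.05, 3 of the 16 were lower in Spry2IEKO mice and 0 were higher, beside 3.17% of all genes lower and 3% higher. The median log2 fold change of the 16 genes was -0.17, beside 0.0076 over all genes tested, and it moved to -0.012 with sex as a covariate and to 0.037 in females alone. In none of the 16 did the 2 genotypes stand apart without overlap, as 0.403% of all genes tested did.

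The 3 genes with the lowest p were Acta1, Tnnc2 and Eno3. Acta1 was 7.44 ± 3.43 (SD, n = 6) in Spry2FF and 4.13 ± 1.25 (SD, n = 6) in Spry2IEKO mice, a log2 fold change of -0.71 (SE 0.250, adjusted p = 0.693) by limma. Tnnc2 was 1.11 ± 0.475 (SD, n = 6) and 0.424 ± 0.592 (SD, n = 6), which gave a log2 fold change of -0.98 (SE 0.361, adjusted p = 0.733) by limma, which is understated near 0.5. Eno3 was 287 ± 31.7 (SD, n = 6) and 232 ± 55.3 (SD, n = 6), which gave a log2 fold change of -0.34 (SE 0.145, adjusted p = 0.776) by limma. Tnni1 was 99.1 ± 12.7 (SD, n = 6) and 83.9 ± 25.2 (SD, n = 6), and Ckm was 22.4 ± 5.94 (SD, n = 6) and 20.3 ± 13.1 (SD, n = 6), with log2 fold changes of -0.29 (SE 0.181, adjusted p = 0.844) and -0.31 (SE 0.337, adjusted p = 0.914) by limma. None of these differences passed after adjustment over all 15879 genes tested. The unadjusted p-values of Acta1, Tnnc2 and Eno3 were 0.0134, 0.0173 and 0.0370 by limma. When single mice were left out, the log2 fold change of Tnni1 ran from -0.40 to -0.15 (the latter without Spry2IEKO mouse 4) and that of Ckm from -0.57 (without Spry2IEKO mouse 8) to -0.084 (without Spry2IEKO mouse 12). The value of Ckm was 0.0055 with sex as a covariate.

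Between litters, again none of the 16 genes passed the test, while 4.38% of all genes tested did. Those 696 calls fell to 17 without Spry2IEKO mice 4 and 5, both of litter A and high in fat genes, and ran from 180 (without Spry2IEKO mouse 5) to 957 (without Spry2IEKO mouse 8) when single mice were left out. The median log2 difference of the fat genes between litters was -1.82, and the part of fat in the calls was not tested further. Of the 16, 1 gene was higher in litter B and 1 lower at an unadjusted p under 0.05 (limma), beside 7.08% of all genes higher and 14.8% lower. They were Tnnc1, with a log2 difference of 0.90 (SE 0.303, adjusted p = 0.108), and Myl1, with -0.71 (SE 0.267, adjusted p = 0.142). The median log2 difference of the 16 genes was 0.095, beside -0.049 over all genes tested. After each mouse was rescaled to the same total the medians were 0.019 and -0.12, and after quantile normalization 0.17 and 0.0095. The sign of the median of the 16 genes was not stable, since it ran from -0.098 (without Spry2IEKO mouse 8) to 0.15 when single mice were left out. The split of all calls moved with the scale, with 171 genes higher and 525 lower in litter B as deposited, 105 and 1351 after rescaling, and 209 and 268 after quantile normalization, and none of the 16 genes was called under any of the 3. With no filter on low values Trim63 passed, with a log2 difference of 0.54 (SE 0.115, adjusted p = 0.0436 by limma, where 1.7% of 24754 genes passed). It ran from 0.109 to 0.313 in the mice of litter A and from 0.330 to 0.672 in those of litter B, and was the only one of the 32 genes above 0 somewhere whose litters did not overlap, as 2.48% of all such genes did. Of the genes on the other lists, Myom3, a protein of the M-band, was higher in litter B, with 0.84 (SE 0.209, adjusted p = 0.0442) by limma, and the smooth muscle gene Hhip and the epithelial cadherin Cdh1 were lower, with -0.65 (SE 0.165, adjusted p = 0.0465) and -0.22 (SE 0.0475, adjusted p = 0.0282), and none passed between genotypes. Without Spry2IEKO mice 4 and 5 none of the 3 passed, with log2 differences of 0.85 (adjusted p = 0.168), -0.77 (adjusted p = 0.0957) and -0.24 (adjusted p = 0.109) by limma. No gene of the 16 showed a difference in the genotype effect between litters (interaction, limma, 0.0126% of all genes called). At an unadjusted p under 0.05 there was 1, Tnnt3, with 1.23 (SE 0.552, adjusted p = 0.998), beside 4.19% of all genes.

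**Figure D4:**
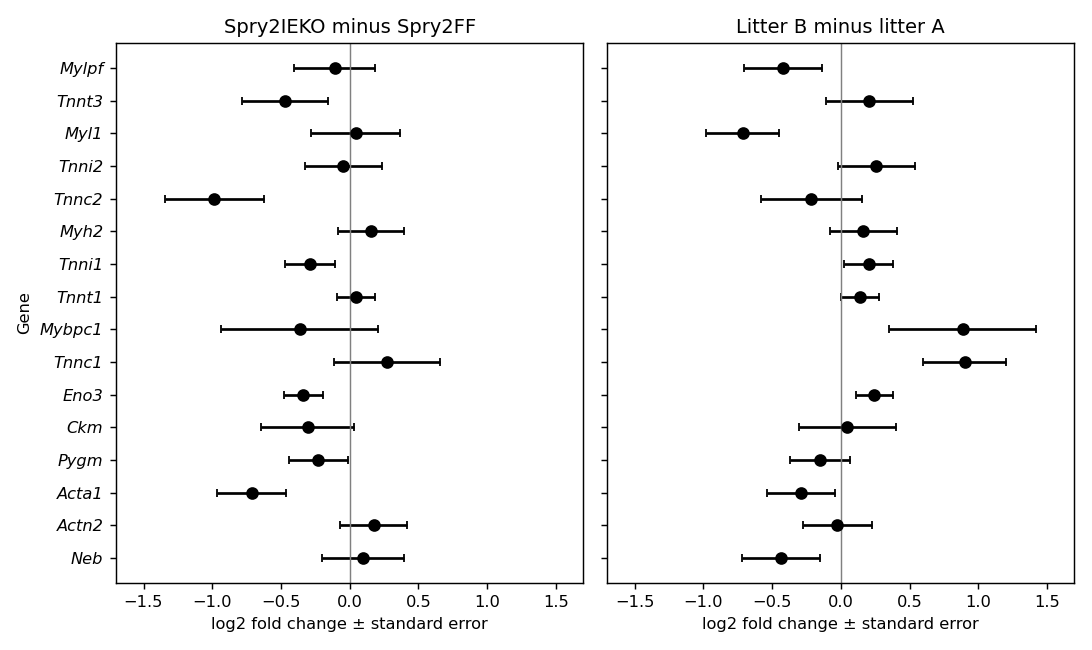
Log2 fold change of the 16 tested striated muscle genes between genotypes (left) and between litters (right), with standard errors from limma. Acta1, Tnnc2 and Eno3 lie furthest from 0 relative to their error on the left and Tnnc1 and Myl1 on the right, and none passed after adjustment.

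Males and females were compared after the values had been seen, since Mybpc1 was highest in males. None of the 16 genes passed (limma with genotype as a covariate, 0.0882% of all genes called), and 4 were higher in males and 0 lower at an unadjusted p under 0.05, beside 3.09% and 3.31% of all genes. The 4 were Mybpc1, with a log2 difference of 1.84 (SE 0.416, adjusted p = 0.285), Tnnt3, with 0.93 (SE 0.253, adjusted p = 0.427), Ckm, with 0.93 (SE 0.294, adjusted p = 0.568), and Pygm, with 0.51 (SE 0.207, adjusted p = 0.724). The value of Mybpc1 and its place among the 4 are descriptions only, since Mybpc1 prompted the comparison. Tnnt3 was the only one of the 16 with all 4 males above all 8 females, as 0.535% of all genes tested were. In the smooth muscle list 11 of 14 genes were higher in males at an unadjusted p under 0.05 and 2 passed after adjustment, Actg2, with 0.87 (SE 0.104, adjusted p = 0.00476), and Synpo2, with 0.64 (SE 0.0944, adjusted p = 0.0292). Of the other skeletal muscle genes, Myom1, a protein of the M-band, passed between sexes, with 0.76 (SE 0.115, adjusted p = 0.0336). The sum of the smooth muscle list ran from 7437 to 11412 in males and from 4382 to 6990.4 in females. Its part in the values of the 4 genes was not tested beyond the correlations given next.

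Some of the 16 genes rose and fell together over the mice. Eno3 and Tnni1 moved together over the 12 mice (Pearson r of log2 values 0.954, permutation p = 1e-05, adjusted p = 0.0012; Spearman rho 0.944, p = 3e-05, adjusted p = 0.0036; 120 pairs of genes), with r of 0.953 within litter A and 0.969 within litter B. Without the 2 mice farthest from the median of Eno3 r was 0.862. This was the only one of the 120 pairs with an adjusted p under 0.05 for both r and rho. The p-value of 1e-05 is the smallest that 100000 permutations can give. The values of a mouse are shares of 1 total, so that relations between genes are not independent of each other.

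Ckm rose and fell with the smooth muscle genes. Against the sum of the 14 smooth muscle genes r was 0.943 (permutation p = 1e-05, adjusted p = 0.00032, 32 relations) and rho 0.93 (p = 5e-05, adjusted p = 0.0016), with r of 0.924 within litter A, 0.954 within litter B, 0.911 in females alone and 0.927 without the 2 mice farthest from the median. The noncoding transcript of Ckm had r of 0.954 and the coding transcript ENSMUST00000003643.2 had r of 0.863 with the same sum, while the coding transcript ENSMUST00000208710.1 had r of 0.659. Pygm did so too, with r of 0.803 (permutation p = 0.00157, adjusted p = 0.0154), rho of 0.818 (p = 0.00187, adjusted p = 0.0299), 0.870 and 0.792 in litters A and B, and 0.67 without the 2 farthest mice. For Mybpc1 r was 0.82 (permutation p = 0.00136, adjusted p = 0.0154), but rho was 0.643 (p = 0.0285, adjusted p = 0.183) and r was 0.017 in females alone, so that the relation rested on the 4 males. Acta1 and Mylpf showed r of -0.00087 (permutation p = 0.998) and 0.18 (permutation p = 0.576).

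Eno3 and Tnni1 moved with epithelial genes by r, though not by rho after adjustment. Against the sum of 10 colon epithelium genes r was 0.719 for Eno3 (permutation p = 0.00688, adjusted p = 0.044) and 0.782 for Tnni1 (permutation p = 0.00192, adjusted p = 0.0154), and rho was 0.706 for each (adjusted p = 0.105 for each, permutation test). Within litters r was 0.953 and 0.504 for Eno3 and 0.94 and 0.68 for Tnni1, and without the 2 farthest mice 0.55 and 0.622. Against the smooth muscle sum r was -0.085 for Eno3 over all mice (permutation p = 0.789), with 0.789 within litter A and -0.863 within litter B, and this difference between litters was not tested. The 10 other genes whose level was most like the summed 33 genes over the 12 mice, a sum set largely by Eno3 and Tnni1, were Cystm1, Gstt1, Gm3336, Selenbp1, Igsf23, Lurap1l, Gm47968, Cactin, Ccdc114 and Best4-ps, with r from 0.898 to 0.958. For Ckm, chosen for such a list after its values were seen, the 10 were Tagln, Jph2, Ckb, Myh11, Shisal1, Myl9, Pdlim7, Mylk, Smtn and Rbpms, with r from 0.96 to 0.979. Of these Tagln, Myh11, Myl9, Mylk and Smtn are in the smooth muscle list, and Jph2 is in the list of other skeletal muscle genes.

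**Figure D5:**
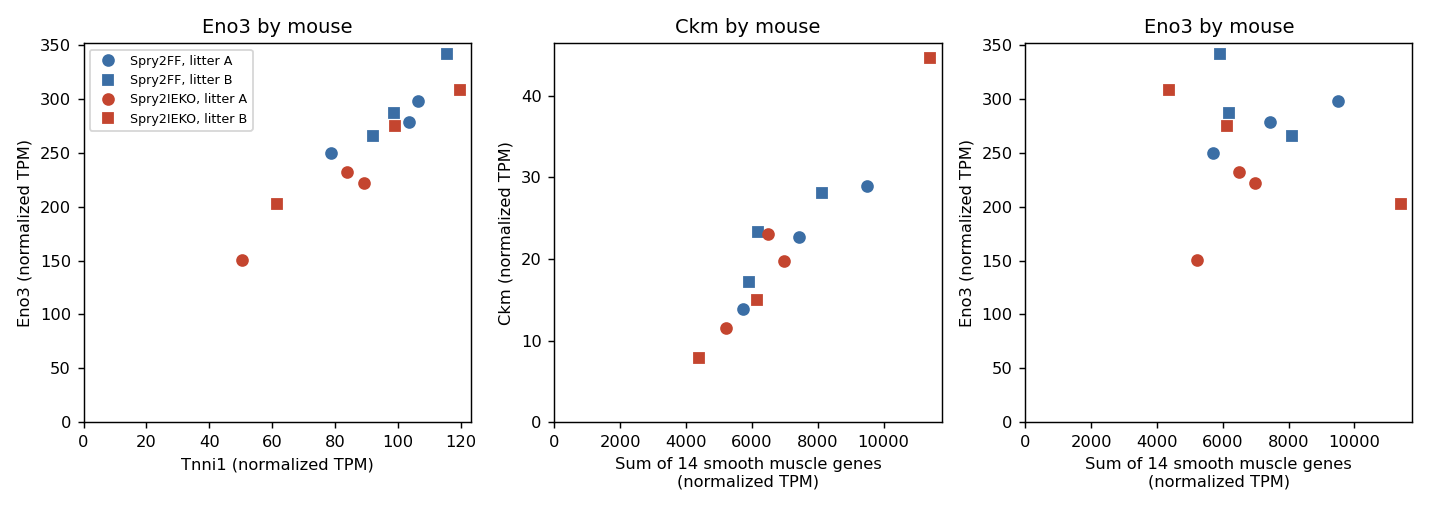
Eno3 against Tnni1 (left), Ckm against the sum of 14 smooth muscle genes (middle) and Eno3 against the same sum (right), in normalized TPM, 1 mark per mouse with circles for litter A, squares for litter B, blue for Spry2FF and red for Spry2IEKO. The first 2 pairs rise together with r of 0.954 and 0.943 on the log2 scale, and the third pair has r of -0.085.

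Fat genes were high in 2 mice. The 8 fat genes summed to 626 in Spry2IEKO mouse 4 and 1152 in Spry2IEKO mouse 5, and to 23.3 to 124 in the other 10 mice. Mouse 4 also had the lowest Eno3 and Tnni1 and the highest Mylpf and Cacna1s, and the part of fat in this was not tested. Cox8b, a subunit of the respiratory chain used in muscle and brown fat and a gene of the list of other skeletal muscle genes, was 78.8 in mouse 5 and at most 3.50 in the other 11, a value singled out after it was seen. The 5 erythrocyte genes summed to 495 in mouse 4 and 378 in Spry2FF mouse 2, and to 40.7 to 183 in the other 10. Without Spry2IEKO mice 4 and 5, again none of the 16 genes passed between genotypes or litters (limma).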

How the data were processed

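RNA was sequenced from the whole wall of the distal colon of 12 mice, and genotype, litter and sex came from the labels. The authors estimated transcript abundance with kallisto (v0.44.0). The deposited signal per transcript is TPM scaled again between mice, by a step not given in the sources used here. The tool sleuth is named beside kallisto without a version, and its part in this scaling is unknown. The labels name paired-end reads and the study's methods single-end reads. The table also holds the authors' p-value and q-value per transcript, which were not used.

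Of 113974 entries, 781 repeated a transcript and were dropped, and the rest were summed to 35240 symbols. Genes that reached a mean of 0.5 entered limma 3.58.1 in R 4.3.3 (lmFit, eBayes with trend, two-sided, Benjamini-Hochberg) on log2(value + 0.5), 6 mice against 6, tested first on simulated data. Plans had been written for TPM and were kept. Correlations used 100000 permutations. Gene positions are GENCODE M21 on GRCm38, upstream windows RefSeq on GRCm38.p6. Values were listed by mouse for a fixed set of 14 genes, and others by range. No columns of samples were left out. The members and lists were chosen with earlier results of these data known. Alternatives were other pseudocounts, filters and scales, the top transcript, sex, single litters or groups, and leaving out each mouse. The comparison of sexes, the run without 2 mice with high fat genes and the share without Tnni1 were added after the data were seen. No count model was used.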

Additional observations from a re-analysis of the deposited data

Results flagged for a closer look

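In 44 groups of 6 mice (16 genes and 6 sums or shares in each genotype), a mouse was set apart from the others in its group in 8, where chance gives about 1 in 20. A mouse was counted when its gap to the nearest other exceeded 0.625 of the range of the group. The groups are not independent, since the sums hold genes that were also counted singly. Several of the 8 came from Spry2IEKO mouse 8, so that no excess over chance is read from the count. Acta1 was 6.56 in Spry2IEKO mouse 6 and 3.25 to 4.33 in the other 5. Mylpf was 12.7 in Spry2IEKO mouse 4 and 4.22 to 6.62 in the other 5. Tnnc2 was 2.07 in Spry2FF mouse 2 and 0.842 to 0.994 in the other 5. Tnnt3 was 7.87 in Spry2FF mouse 3 and 2.88 to 4.58 in the other 5 of that group, and 7.68 in Spry2IEKO mouse 8 and 1.53 to 2.82 in the other 5 of that group. Mybpc1 was 7.44 in Spry2IEKO mouse 8 and 0.320 to 0.982 in the other 5. In the same mouse, the only Spry2IEKO male, the striated muscle genes without Eno3 and Tnni1 summed to 99.8, with 39.8 to 60.1 in the other 5, and the smooth muscle genes to 11412, with 4382 to 6990 in the other 5.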

How the results depend on the processing

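No paired analysis was possible because the genotypes share no replicate numbers. The count of the 16 tested striated muscle genes that passed stayed at 0 between genotypes and in the interaction under all alternatives run. Between litters 1 gene passed without the filter on low values, Trim63, which is not among the 16 and was tested only there, and between sexes 0 to 1 passed when single mice were left out, the 1 being Mybpc1 without Spry2FF mouse 3, the male in which it was lowest, so that nothing is read from it. With litter as a covariate, 0 of the 16 and 6 of all genes passed between genotypes. Over all genes, 5 passed between genotypes, and 1 without the filter, with sex as a covariate, in litter B alone or without the 2 mice with high fat genes, 2 with quantile normalization, the top transcript only, litter A alone or females alone, and 1 to 11 when single mice were left out. Between litters 696 passed, and 422 without the filter, 1456 after rescaling, 1 in females, in Spry2FF or in Spry2IEKO alone, 17 without the 2 mice with high fat genes, and 180 to 957 when single mice were left out. In the interaction 2 passed, and 0 with a filter at a mean of 2, 7 without the 2 mice and 2 to 5 when single mice were left out. Between sexes 14 passed, and 9 with the top transcript only and 7 to 20 when single mice were left out. The median sum of the 33 genes was 428 and was 286.5 with the top transcript only, and the median fast share of 15.8% was 58.5% without Mylpf and Tnni1, 5.89% for the troponin pairs and 68.9% without Tnni1. By construction these leave out transcripts or genes. Log2 changes that turned sign, none of them past the threshold, were Ckm between genotypes (0.0055 with sex as a covariate), Mylpf between genotypes (0.40 with the top transcript, -0.30 to 0.031 with single mice left out, the latter without Spry2FF mouse 10, 0.045 in females), Tnnt3 between genotypes (0.14 in litter B), Tnnc1 between genotypes (-0.040 to 0.42 with single mice left out, the former without Spry2FF mouse 7, -0.025 in litter B), Ckm between litters (-0.030 rescaled, -0.0031 with the top transcript, -0.084, -0.028, -0.073 and -0.24 without Spry2FF mouse 7, Spry2FF mouse 9, Spry2IEKO mouse 4 and Spry2IEKO mouse 8, at most 0.30 with any single mouse left out, -0.24 in females, -0.067 without the 2 mice), Mylpf between litters (0.10 with the top transcript) and Tnnt3 between litters (-0.061 to 0.43 with single mice left out, the former without Spry2IEKO mouse 8, -0.41 in Spry2FF alone). Where counts changed with a setting other than fewer mice or genes, the cause was not tested. Depth is unknown, so genes near 0 cannot be ranked by precision.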
